A study of Mus musculus with 39 samples.

Results

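The genes described here are 47 mouse genes known to be imprinted, that is, expressed mainly from the maternal or mainly from the paternal chromosome. They came from a fixed list of names, and each was placed by the midpoint of its annotated body (GENCODE M21, mm10) in a domain of nucleosome wrapping and in a domain of replication timing (RT). All 47 had a position, out of 32093 protein-coding and long non-coding genes that were placed the same way. Members less than 1 Mb apart were counted as 1 locus, which gave 21 loci on 11 chromosomes, 7 with 1 member, 9 with 2 and 5 with 3 or more. Chromosome 7 alone held 16 of the 47 members.

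The series consists of 39 libraries of wild type mouse embryonic stem cells of the line R1, labelled as derived from the inner cell mass and grown with leukemia inhibitory factor. The domains of nucleosome wrapping (NRDs) came from the H3 wrapping-seq libraries, 2 replicates with 4 libraries in all, in which crosslinked chromatin was digested with MNase, a nuclease that trims DNA not held by the histones, and H3-bound fragments were sequenced from both ends. The RT domains came from 8 libraries of BrdU-labelled DNA, 4 S-phase fractions (S1 to S4) in 2 replicates. The remaining libraries (against H4, of MNase input, over a course of digestion, of sorted phases of the cell cycle, and after labelling with EdU, some with triptolide or DMSO) were not used here.

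The value of an NRD is the study's wrapping index, a z-score, which is relative to the mean over the genome. An NRD with a positive value is a tight domain (TiNRD), where longer fragments are more frequent than in that mean. By the study's reading, DNA may be wrapped tighter there. An NRD with a negative value is a loose domain (LoNRD). An RT domain with a positive log2 ratio of the early fractions S1 and S2 over the late fractions S3 and S4 replicates early, and one with a negative ratio replicates late. Each list holds 1 value per domain, with no replicate and no read number, so that no spread between replicates, no interval and no test is given, and the depth behind the value of a domain cannot be read from the lists. Genes in 1 domain share its value and are not independent. Both lists merge the maternal and the paternal chromosome, so that the values below are those of both alleles together. The lists hold no expression, and neither the identity of the cells nor the allelic expression of the members was checked here.

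Genomic imprinting begins in the germ line, where DNA methylation is laid down in the egg or in the sperm at a control region, and it is kept in the embryo when the rest of the genome is largely demethylated. The protein ZFP57 binds a methylated hexamer at such control regions and recruits TRIM28 (KAP1), which keeps the methylated allele closed. Many imprinted genes act in growth of the fetus and placenta, in metabolism or in behaviour, and they lie in clusters in which a long non-coding RNA often silences its neighbours on the chromosome that expresses it.

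The promoters of 6 members whose start lies at or near a maternally methylated control region show how different the local sequence is among imprinted genes. They are printed from RefSeq on GRCm38.p6, the assembly called mm10, from 250 bases before the start of transcription to 30 after it, with the ZFP57 hexamer TGCCGC, or its complement GCGGCA on the printed strand, in capitals. For genes with several entries the one with most hexamers was taken, so that the entries of Snrpn and Mest begin inside the annotated gene. Among entries with equal numbers of hexamers the one with most CpG dinucleotides was taken.

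Snrpn, chr7:60005170-60005449, minus strand: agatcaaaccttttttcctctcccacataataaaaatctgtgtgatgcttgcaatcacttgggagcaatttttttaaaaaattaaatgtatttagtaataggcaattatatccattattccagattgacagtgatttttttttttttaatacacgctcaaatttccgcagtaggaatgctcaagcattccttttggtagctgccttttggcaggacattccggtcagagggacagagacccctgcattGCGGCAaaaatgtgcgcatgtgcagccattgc
Peg3, chr7:6730390-6730669, minus strand: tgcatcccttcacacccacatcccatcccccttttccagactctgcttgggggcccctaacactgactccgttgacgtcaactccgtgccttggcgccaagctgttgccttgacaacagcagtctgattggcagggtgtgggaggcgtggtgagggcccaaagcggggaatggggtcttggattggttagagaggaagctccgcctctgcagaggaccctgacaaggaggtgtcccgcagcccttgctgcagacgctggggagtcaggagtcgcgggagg
Mest, chr6:30737800-30738079, plus strand: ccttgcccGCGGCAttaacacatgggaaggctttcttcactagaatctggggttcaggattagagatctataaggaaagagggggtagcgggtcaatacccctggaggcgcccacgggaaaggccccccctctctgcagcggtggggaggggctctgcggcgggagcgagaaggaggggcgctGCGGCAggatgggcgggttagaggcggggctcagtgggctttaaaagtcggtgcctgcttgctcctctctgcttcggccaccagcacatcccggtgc
Nnat, chr2:157559828-157560107, plus strand: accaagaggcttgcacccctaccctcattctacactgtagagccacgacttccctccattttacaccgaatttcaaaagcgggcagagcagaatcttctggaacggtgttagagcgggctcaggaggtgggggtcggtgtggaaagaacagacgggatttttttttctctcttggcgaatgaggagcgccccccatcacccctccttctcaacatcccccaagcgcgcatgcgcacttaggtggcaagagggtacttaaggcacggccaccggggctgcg
Kcnq1ot1, chr7:143296518-143296797, minus strand: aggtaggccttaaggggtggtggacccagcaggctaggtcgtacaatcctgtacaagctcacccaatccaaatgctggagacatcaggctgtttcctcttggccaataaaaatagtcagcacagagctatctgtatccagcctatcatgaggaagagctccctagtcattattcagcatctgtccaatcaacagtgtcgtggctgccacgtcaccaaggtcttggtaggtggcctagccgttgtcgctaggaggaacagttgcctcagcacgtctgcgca
Airn, chr17:12741061-12741340, plus strand: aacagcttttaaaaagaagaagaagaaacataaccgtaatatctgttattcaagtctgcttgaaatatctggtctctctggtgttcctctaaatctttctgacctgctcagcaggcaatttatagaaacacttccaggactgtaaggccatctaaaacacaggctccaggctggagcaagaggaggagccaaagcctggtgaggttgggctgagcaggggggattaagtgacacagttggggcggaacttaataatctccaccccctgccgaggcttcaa

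Snrpn had 1 hexamer and 5 CpG dinucleotides in the 280 bases, and Mest had 2 hexamers and 16 CpG. Peg3 had no hexamer in this window and 11 CpG, Nnat none and 15, Kcnq1ot1 none and 7, and Airn none and 3. The A/T content was 61.4% at Snrpn, against 37.1% at Mest and 38.6% at Peg3. The table of promoters matched 37 of the 47 members, with 55 entries. The hexamer, on either strand, was in 10 of these 37 (27.0%), namely Copg2, Grb10, Mcts2, Meg3, Mest, Nap1l5, Plagl1, Snrpn, Zdbf2 and Zim1, beside 11.7% of the 27025 genes of the table. The members had more entries per gene than the table, 55 for 37 genes beside 32851 for 27025, and counted by entry the hexamer was in 20.0% of theirs, beside 10.4% of all. Zdbf2 had the most, with 3. The members' promoters had a median of 15 CpG and 42.5% A/T, and those of all genes 7 CpG and 47.1% A/T. These medians are over the 1 entry taken per gene, a choice that raises CpG where a gene has more entries. They were not counted by entry. The hexamer itself contains a CpG, and the part of CpG content in its share among the members was not tested. A match is a description of these letters and not a binding site.

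Most imprinted genes lay in tightly wrapped, early-replicating chromatin, and so did most genes. TiNRDs held 37 of the 47 members (78.7%), beside 76.0% of all genes, and LoNRDs held 10 (21.3%), beside 22.8%. No member was without an NRD, as 1.23% of all genes were. Early RT domains held 36 members (76.6%), beside 70.0% of all genes, late domains held 9 (19.1%), beside 25.7%, and 2 members, Peg3 and Usp29, had no RT domain, as 4.26% of all genes had none. For both lists the members' shares were near those of all genes. The loose and late shares rest largely on chromosome 7. Without it, 27 members were in TiNRDs and 4 in LoNRDs, and 28 replicated early and 3 late.

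The calls corresponded, TiNRD with early or LoNRD with late, for 42 of 47 members (89.4%), beside 79.1% of all genes. They were 34 members in TiNRDs that replicated early, beside 63.8% of all genes, and 8 in LoNRDs that replicated late, beside 15.3%. The combination of TiNRD and late was found for 1 member, Kcnk9, beside 9.91% of all genes. The combination of LoNRD and early was found for 2, Sgce and Peg10, beside 5.61%. By locus, 17 of 21 were in TiNRDs and 4 in LoNRDs, and 16 replicated early and 3 late, with 1 locus split between early and late and 1 whose members mostly had no RT domain. The members lay in 16 TiNRDs, 4 LoNRDs, 18 early and 3 late RT domains, of 1243 NRDs and 1811 RT domains in all.

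**Figure D1:**
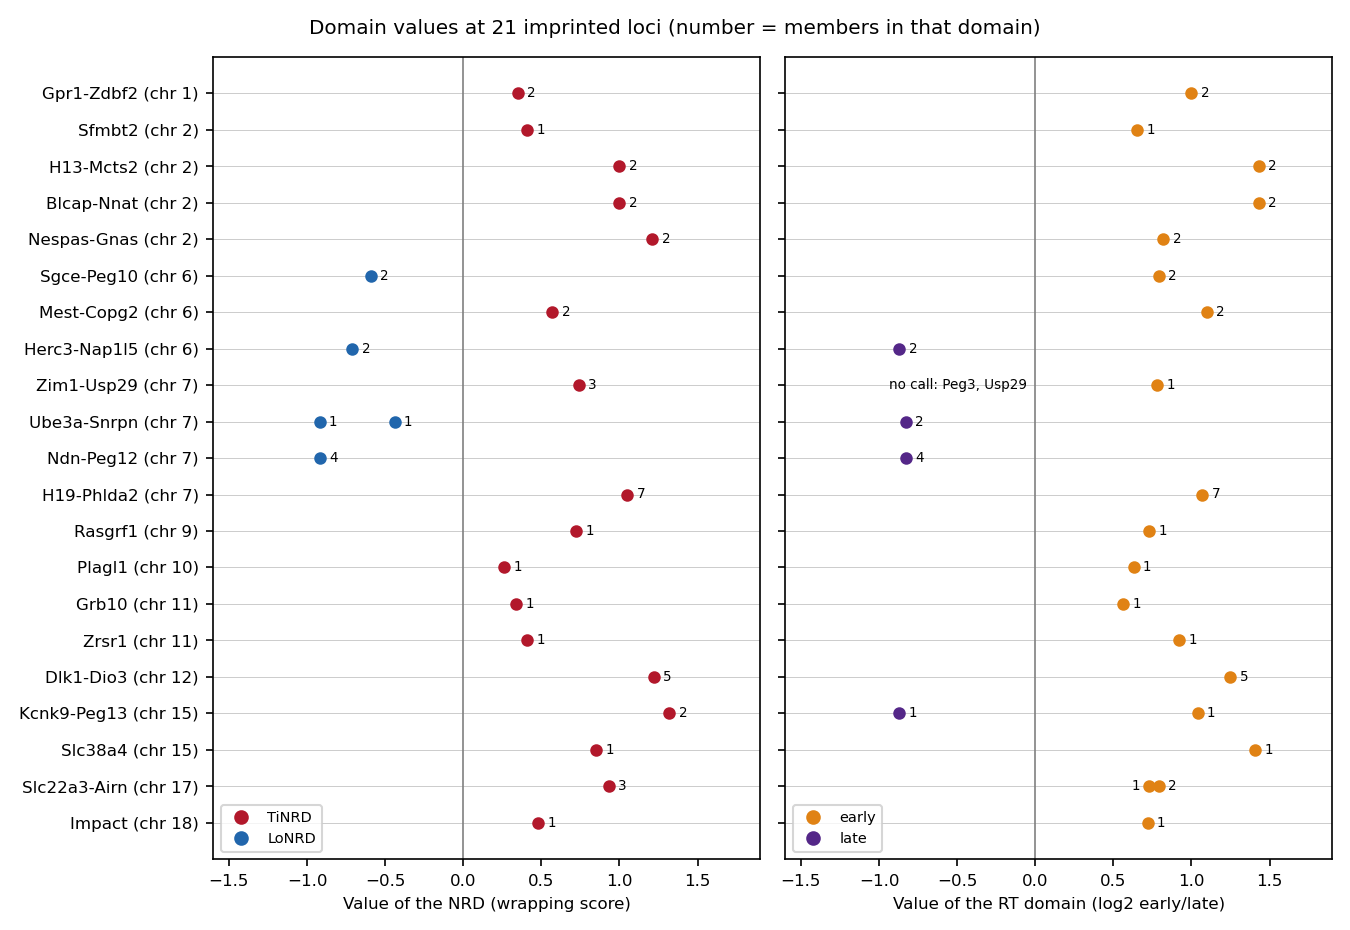
Value of the NRD (left) and of the RT domain (right, log2 of early over late) at each of the 21 imprinted loci. The NRD value is the wrapping index, a z-score without unit, labelled wrapping score. The number of members in the domain stands beside each point. 4 loci have negative NRD values, 3 of them also lie in late domains, Kcnk9-Peg13 has 1 member on each side of 0 in RT, and Peg3 and Usp29 have no RT domain.

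The median NRD value of the members was 0.85, from -0.92 at Snrpn and the Ndn cluster to 1.32 at Kcnk9 and Peg13, and that of all genes was 0.69. In TiNRDs the median was 1.00 for members and 0.85 for all genes. In LoNRDs it was -0.82 for members and -0.71 for all genes. Each member is counted in these medians, although 7 share 1 TiNRD value of 1.05, 5 share 1.22 and 4 share 1.00. In LoNRDs 5 share the value -0.92. The NRD values were not taken by domain, so no difference from all genes can be stated. The median RT value was 0.92 over the 45 members with a domain and 0.89 over all genes, and within early domains 1.07 and 1.08. The quartiles of all genes ran from 0.18 to 1.02 in NRD value and from -0.35 to 1.31 in RT value, so that both medians of the members lay inside these ranges.

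**Figure D2:**
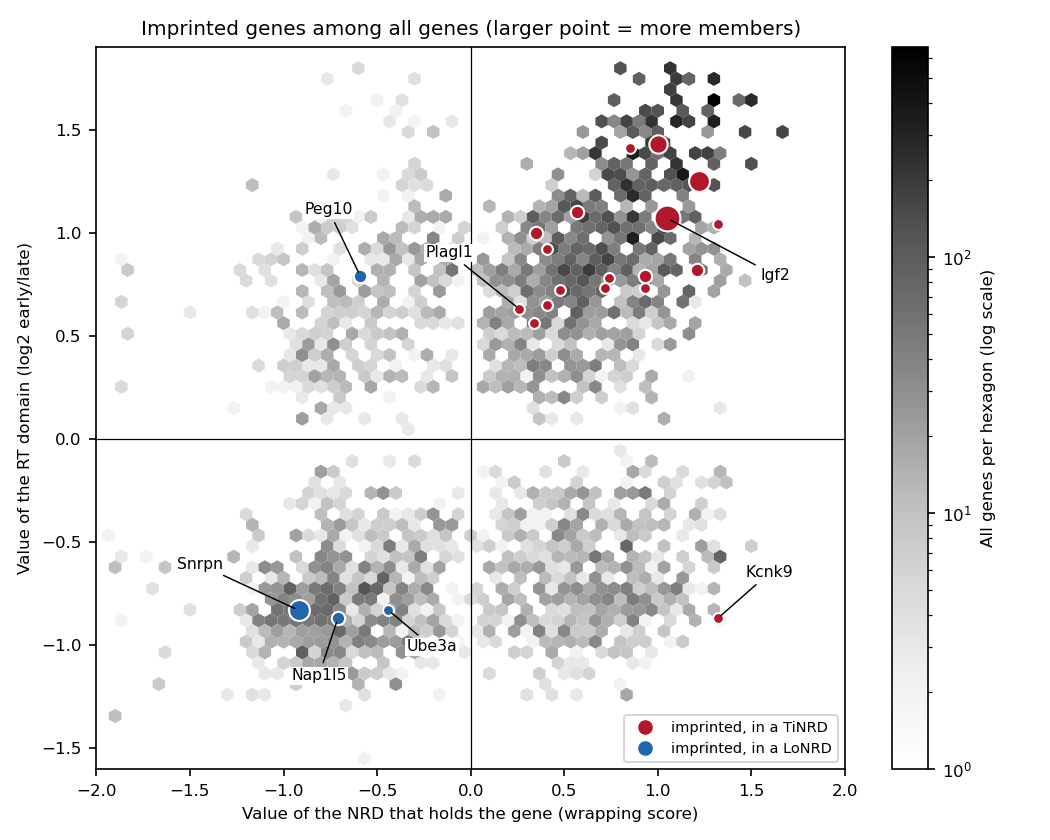
NRD value (wrapping index, labelled wrapping score) and RT value (log2 early over late) of all genes with both calls as shaded hexagons. Members are points whose size grows with the number of members at that pair of values. Genes with NRD values outside the axis limits are not drawn, the largest point is the Igf2 cluster with 7 members, and Peg10 and Kcnk9 stand in the quadrants where the 2 calls do not correspond.

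The clusters with 7 and 5 members lay in long TiNRDs, far from an NRD border, and replicated early. The cluster at the distal end of chromosome 7 (chr7:142575529-143503150) holds H19, a maternally expressed non-coding RNA, and Igf2, a paternally expressed growth factor, and next to them Ascl2, a transcription factor needed in the placenta, the potassium channel gene Kcnq1, its antisense RNA Kcnq1ot1, the cell cycle inhibitor Cdkn1c and Phlda2, which limits growth of the placenta. All 7 lay in 1 TiNRD, chr7:124700001-145400000, the last of the chromosome, with a value of 1.05 and a length of 20700 kb. All 7 lay in an early RT domain of 4891 kb with a value of 1.07, which runs to the end of the chromosome. The midpoints were 1898 to 2823 kb from the nearest NRD border. H19 and Igf2 follow imprints of the sperm and the other members of this cluster an imprint of the egg, and no domain border fell between them.

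The cluster of chromosome 12 (chr12:109452823-110281097) holds Dlk1, which encodes a transmembrane protein related to Notch ligands, the non-coding RNAs Meg3 and Mirg, Rtl1, a gene derived from a retrotransposon and needed in the placenta, and Dio3, an enzyme that inactivates thyroid hormone. Its TiNRD had a value of 1.22 and a length of 12000 kb, and its early RT domain a value of 1.25 and a length of 4150 kb. Dlk1 was 4242 kb from the nearest NRD border, the farthest of all members, but 208 kb from an RT border. Beyond that border lay 100 kb without a call and then another early domain, with a value of 1.01. The maternally expressed Meg3 and Mirg and the paternally expressed Dlk1, Rtl1 and Dio3 shared both domains.

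Chromosome 2 held 4 tight and early loci, of which Sfmbt2 lay in a short TiNRD and is described with the short ones. H13, a signal peptide peptidase, with the retrogene Mcts2 in its intron, and Blcap with Nnat (neuronatin) in its intron are 2 loci several megabases apart, but both lay in the TiNRD chr2:150000001-159400000 with a value of 1.00 and in the same early domain of 8050 kb with a value of 1.43, the highest RT value of any member. The NRD and this RT domain ended at the same position, and the RT domain began 1350 kb after the NRD. Gnas, which encodes the stimulatory G protein subunit, and its antisense RNA Nespas lay in a TiNRD of 12800 kb with a value of 1.21, 685 and 712 kb from its border. Their early domain was shorter, 2400 kb with a value of 0.82, and the LoNRD after their TiNRD had a value of -1.86.

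Igf2r, the receptor that clears IGF2, its antisense silencer Airn and the organic cation transporter gene Slc22a3 (chr17:12418960-12860136) lay in a TiNRD of 4300 kb with a value of 0.93. Slc22a3 lay in an early RT domain with a value of 0.73 and Igf2r and Airn in the next one, with a value of 0.79, after 50 kb without a call. Mest, a member of the hydrolase fold family, and the vesicle coat gene Copg2 lay in a TiNRD of 5000 kb with a value of 0.57 and an early domain with a value of 1.10, and 28.9% of the span of this locus is unassembled. The amino acid transporter gene Slc38a4 had an NRD value of 0.85 and an RT value of 1.41. Impact, a regulator of translation on chromosome 18, had an NRD value of 0.48 and an RT value of 0.72.

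**Figure D3:**
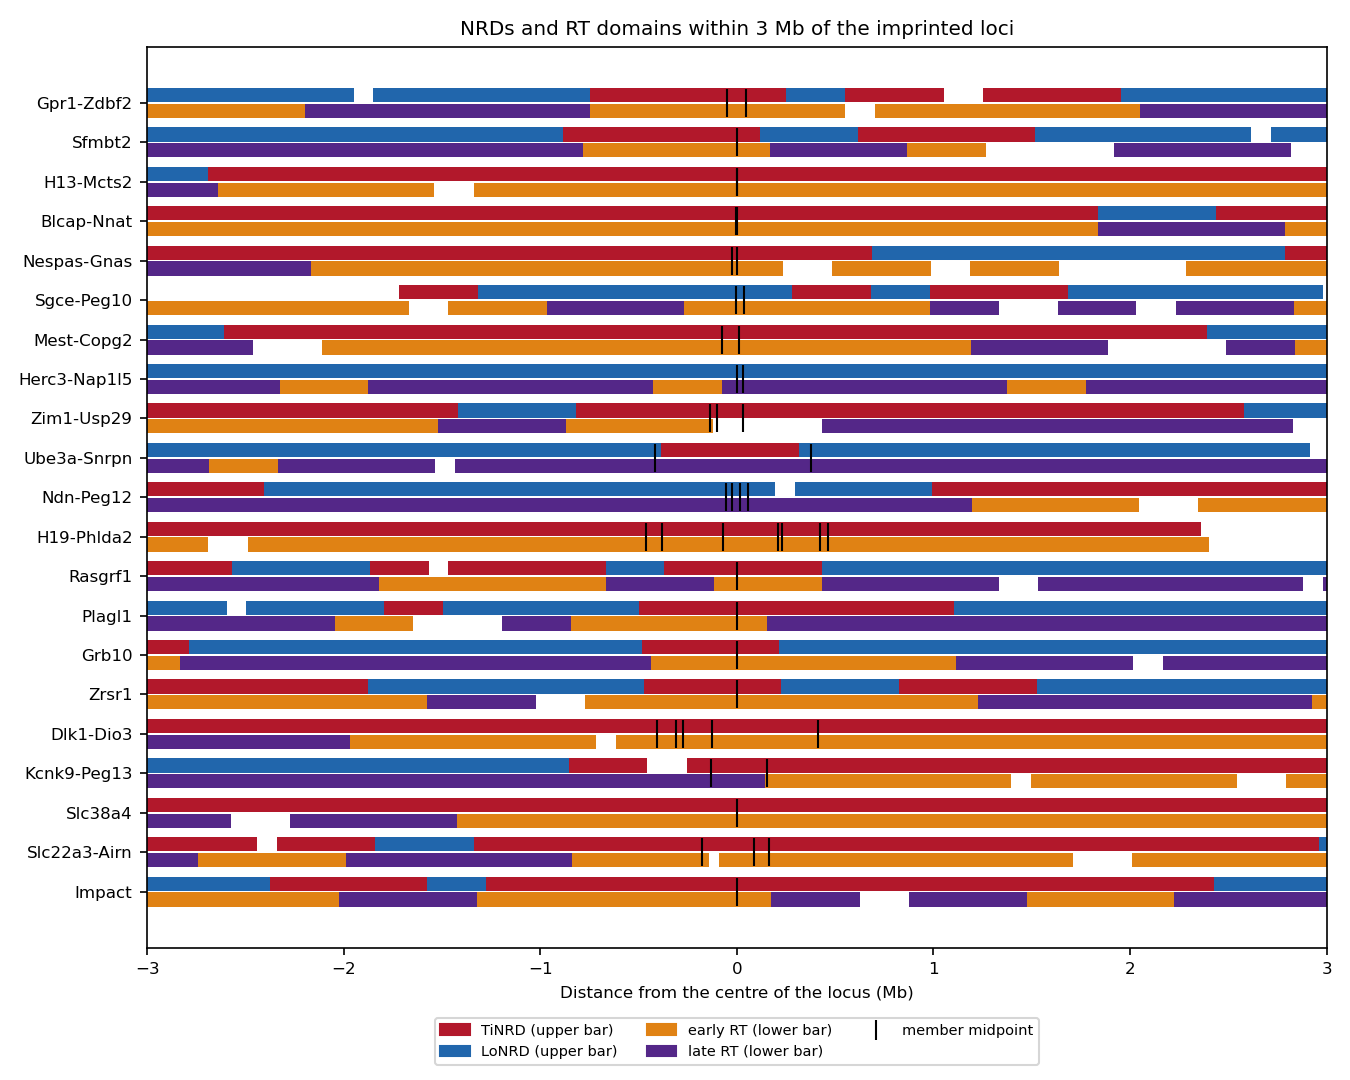
Domains within 3 Mb of the centre of each of the 21 loci, with NRDs in the upper bar, RT domains in the lower bar and the midpoints of members as black lines. Blank stretches have no call, 9 loci have no NRD border within 1 Mb of the centre, and the members Gpr1, Zdbf2, Sfmbt2, Rasgrf1, Plagl1, Grb10 and Zrsr1 lie in tight stretches shorter than 2 Mb with loose chromatin on both sides.

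In contrast to these clusters, 6 loci lay in short TiNRDs, under 2 Mb, with a LoNRD directly on each side. They hold 7 of the 37 members in TiNRDs (18.9%), beside 20.7% of all genes in TiNRDs. Gpr1, a receptor for chemerin, and Zdbf2, a zinc finger gene that affects growth, lay in a TiNRD of 1000 kb with a value of 0.35. It began at the same position as its early RT domain, and the RT domain ended 300 kb after it. Sfmbt2, a Polycomb gene that acts in the placenta, lay in a TiNRD of 1000 kb with a value of 0.41 and an early domain of 950 kb with a value of 0.65, whose start and end were 100 and 50 kb after those of the NRD. Rasgrf1, an exchange factor for Ras with a sperm imprint, lay in a TiNRD of 800 kb with a value of 0.72, and its early domain of 550 kb ended at the same position but began 250 kb after the start of the NRD. At Gpr1-Zdbf2 the whole TiNRD was early, and at Sfmbt2 and Rasgrf1 the first 100 and 250 kb of the TiNRD lay outside the early domain.

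At the other 3 the ends of the domains lay farther apart. Grb10, an adaptor protein that dampens insulin signalling, lay in a TiNRD of 700 kb with a value of 0.34, and its early domain, with a value of 0.56, began 50 kb after the NRD but ran 900 kb past its end. Zrsr1, a splicing factor retrogene inside Commd1, lay in a TiNRD of 700 kb with a value of 0.41 inside an early domain of 2000 kb with a value of 0.92. Plagl1, a zinc finger transcription factor, had the lowest NRD value of the members in TiNRDs, 0.26. Its early domain of 1000 kb began 350 kb before the TiNRD and ended 950 kb before the end of the TiNRD, so that a tight stretch replicated late beyond the gene. The LoNRDs after Plagl1, Grb10 and Rasgrf1 had values of -0.82, -0.76 and -0.76.

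Over the members in TiNRDs the median length of the TiNRD was 9400 kb, and over all genes in TiNRDs it was 4900 kb. The members crowd in few domains, 7 of them in the longest, and when each of the 16 TiNRDs was counted 1 time the median was 4000 kb, beside 1100 kb over the 627 TiNRDs that hold any gene, also counted 1 time each. In this count a domain with many genes weighs no more than a domain with few. A longer domain is likelier to hold a member of any list of genes. The larger median of the 16 therefore cannot show a preference for long domains. The median distance to the nearest NRD border was 1274 kb for members and 843 kb for all genes, and to the nearest RT border 506 and 446 kb. Over the 21 loci, measured from the centre of each, the median distance to an NRD border was 686 kb. The median over members counts each gene of a cluster, so no greater distance than that of all genes can be stated. Ube3a and Snrpn were the members under 100 kb from an NRD border, 2 of 47 (4.26%) beside 9.75% of all genes. Zim1, Peg3, Peg13 and Slc22a3 were those under 50 kb from an RT border, 4 of 47 (8.51%) beside 6.72% of all genes. A border here is any end of a domain, also beside a gap between domains of the same kind, as at Slc22a3.

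The genes of the Prader-Willi and Angelman region of chromosome 7 made up 6 of the 10 members in LoNRDs. Ube3a is a ubiquitin ligase whose maternal loss in brain causes Angelman syndrome, Snrpn encodes a splicing protein and its promoter lies at the imprinting centre of the region, and Ndn, Magel2, Mkrn3 and Peg12 are paternally expressed genes, of which Mkrn3 restrains the onset of puberty. All 6 lay in 1 late RT domain, chr7:58250001-63600000, with a value of -0.83. Ube3a lay in the LoNRD chr7:56200001-59300000 with a value of -0.44, the mildest of the members in LoNRDs. Snrpn and the Ndn cluster (chr7:62346569-62464510) lay in the LoNRD chr7:60000001-62600000 with a value of -0.92, the lowest of all members.

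Between these 2 LoNRDs stood a TiNRD of 700 kb, chr7:59300001-60000000, with a value of 1.00, inside the same late RT domain. It holds 210 of the 262 annotated snoRNA genes of chromosome 7 and 1 protein-coding gene. It covered 13.9% of the body of Ube3a and 11.1% of that of Snrpn, and the midpoints of the 2 genes lay 29.9 and 61.4 kb from its borders. Taken by the span from Ube3a to Snrpn (chr7:59228750-60140219) instead of by midpoints, 76.8% of this locus was TiNRD. The sequence of this stretch is repetitive. The share of its 31-base words that occur at a single position of chromosome 7 was 35.4%, beside 81.2% over the chromosome, 85.3% in the LoNRD before it and 77.0% in the LoNRD after it. Its soft-masked share was 65.3%, its A/T content 57.3%, beside 59.9% and 62.2% in the LoNRDs around it, and 7.14% of it is unassembled. Reads of low mapping quality were removed by the authors, and the part of repeated sequence in this tight call was not tested.

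**Figure D4:**
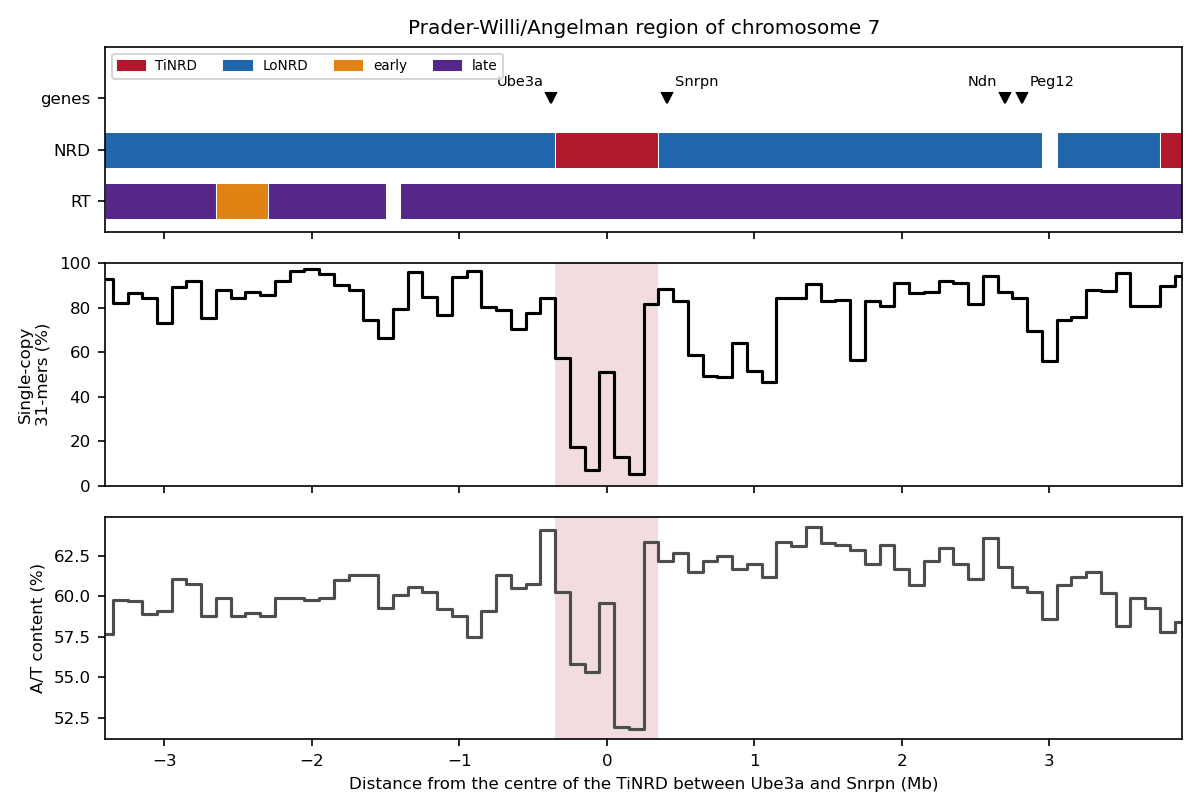
Calls (top), share of 31-base words found at a single position of the chromosome (middle, percent in 100 kb bins) and A/T content (bottom, percent in 100 kb bins) by distance from the centre of the TiNRD between Ube3a and Snrpn. The shaded TiNRD of 700 kb has a single-copy share of 5.35% to 81.8% by bin and lies in a late RT domain, and the genes lie in loose chromatin on both sides.

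The other loose and late locus was on chromosome 6 (chr6:58831465-58920398), with the ubiquitin ligase gene Herc3 and the retrogene Nap1l5 in its intron. It lay 3176 kb from the nearest NRD border, inside a LoNRD of 11100 kb with a value of -0.71. Its late RT domain was 1450 kb long with a value of -0.87 and had early domains on both sides, with values of 0.44 before and 0.15 after it. Herc3, counted here as maternally expressed, and the paternally expressed Nap1l5 thus had the same calls.

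At 3 loci the calls of members by wrapping and by timing did not correspond, or a member had no RT call. Sgce, which encodes epsilon-sarcoglycan, and Peg10, a retrotransposon-derived gene needed in the placenta, start next to each other on opposite strands (chr6:4674350-4760517). They lay in a LoNRD of 1600 kb, chr6:3400001-5000000, with a value of -0.59, and in an early RT domain of 1250 kb, chr6:4450001-5700000, with a value of 0.79. The early domain thus began 1050 kb inside the loose domain and ran 700 kb past its end, and the genes lay in the 550 kb that both shared. The TiNRDs on either side were short, 400 kb each, with values of 0.43 and 0.09.

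Kcnk9, a maternally expressed potassium channel gene, and Peg13, a paternally expressed non-coding RNA in an intron of Trappc9, lay in the same TiNRD, chr15:72400001-89800000, with a value of 1.32, the highest of any member. An RT border fell between them. Kcnk9 lay in a late domain with a value of -0.87 that ended at position 72800000, and Peg13 in an early domain of 1250 kb with a value of 1.04 that began at the next base. The midpoint of Peg13 was 8.0 kb from this border and that of Kcnk9 276 kb, and the start of the TiNRD was 124 kb from the midpoint of Kcnk9. RT was counted in windows of 50 kb, so that the place of Peg13 relative to the border is within 1 window.

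Zim1 and Peg3, zinc finger genes expressed from opposite alleles, and Usp29, a gene of the ubiquitin protease family that starts next to Peg3, lay at chr7:6671269-6967219 in a TiNRD of 3400 kb with a value of 0.74. The early RT domain that holds Zim1, with a value of 0.78, ended at position 6700000, between Zim1 and Peg3. A stretch of 550 kb without a call followed, with Peg3 and Usp29 in it, and then a late domain with a value of -0.77. The single-copy share of 31-base words was 77.7% in the stretch without a call, near the 81.2% of the chromosome, and 7.31% in the late domain after it. Over the whole TiNRD it was 35.1%, and the part of repeated sequence in these calls was not tested.

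The calls were also counted by the parental allele that is expressed. Of 16 maternally expressed members 14 were in TiNRDs and 2 in LoNRDs (Herc3 and Ube3a), and 13 replicated early and 3 late. Of 29 paternally expressed members 21 were in TiNRDs and 8 in LoNRDs, and 21 replicated early, 6 late and 2 had no RT domain. 5 of these 8 were Snrpn and the Ndn cluster in 1 domain. The maternally expressed H19, Ascl2, Kcnq1, Cdkn1c and Phlda2 likewise shared 1 TiNRD. Among all genes 76.0% were in TiNRDs and 70.0% in early domains. As members share domains and there are no replicates, no difference between maternally and paternally expressed members can be stated. Gnas, whose allele depends on the isoform, and Grb10, whose allele depends on the tissue, were tight and early. The 7 non-coding members, H19, Kcnq1ot1, Meg3, Mirg, Airn, Nespas and Peg13, were all in TiNRDs and in early domains, beside 57.1% of all long non-coding genes. H19 shared its domains with Kcnq1ot1 and Meg3 with Mirg. The 10 members in LoNRDs were all protein-coding, as were 40 of the 47 members and 65.9% of all genes in LoNRDs.

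By the germ line that carries the imprint, the 3 loci with sperm methylation (H19-Phlda2 through H19 and Igf2, Rasgrf1, and Dlk1-Dio3) were tight and early. Of 16 loci with egg methylation, H19-Phlda2 counted again through Kcnq1ot1, 12 were tight and 4 loose, and 11 replicated early, 3 late and 2 were mixed or without a call. Sfmbt2 and Slc38a4, whose imprinting was counted here as not canonical, and Gpr1-Zdbf2, where the germline mark is transient, were tight and early. The shares of all genes were 76.0% in TiNRDs, 70.0% in early domains and 63.8% in both. With 3 sperm loci and no replicates, no difference between these groups of loci can be stated.

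The sequence around the members followed their calls as it did for all genes. The median A/T content of the 1 Mb around the midpoint was 54.3% for the 37 members in TiNRDs and 60.2% for the 10 in LoNRDs, and 55.0% and 60.4% for all genes. The members ranged from 52.0% to 58.0% in TiNRDs and from 59.0% to 61.4% in LoNRDs. All genes ranged from 46.0% to 62.4% and from 51.9% to 64.8%. A range widens with the number of genes, here 24396 and 7302 beside 37 and 10, so the overlap of ranges cannot be compared. The quartiles of all genes, 52.7% to 56.8% in TiNRDs and 59.3% to 61.4% in LoNRDs, did not overlap either. The highest A/T content among members in TiNRDs was that of Grb10, at 58.0%, and the lowest in LoNRDs that of Ube3a, at 59.0%. The soft-masked share was 48.3% for members in LoNRDs, beside 38.5% for all genes there, and 27.5% beside 29.1% in TiNRDs. The value in LoNRDs follows the Prader-Willi and Angelman region, whose members had 48.3% to 59.0%. Herc3 and Nap1l5 had 39.3% and 38.1%, and Sgce and Peg10 27.3% and 27.1%. The members had a median of 9 protein-coding genes in the 1 Mb around them and all genes 13, and Ube3a had 1, the fewest of the members.

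**Figure D5:**
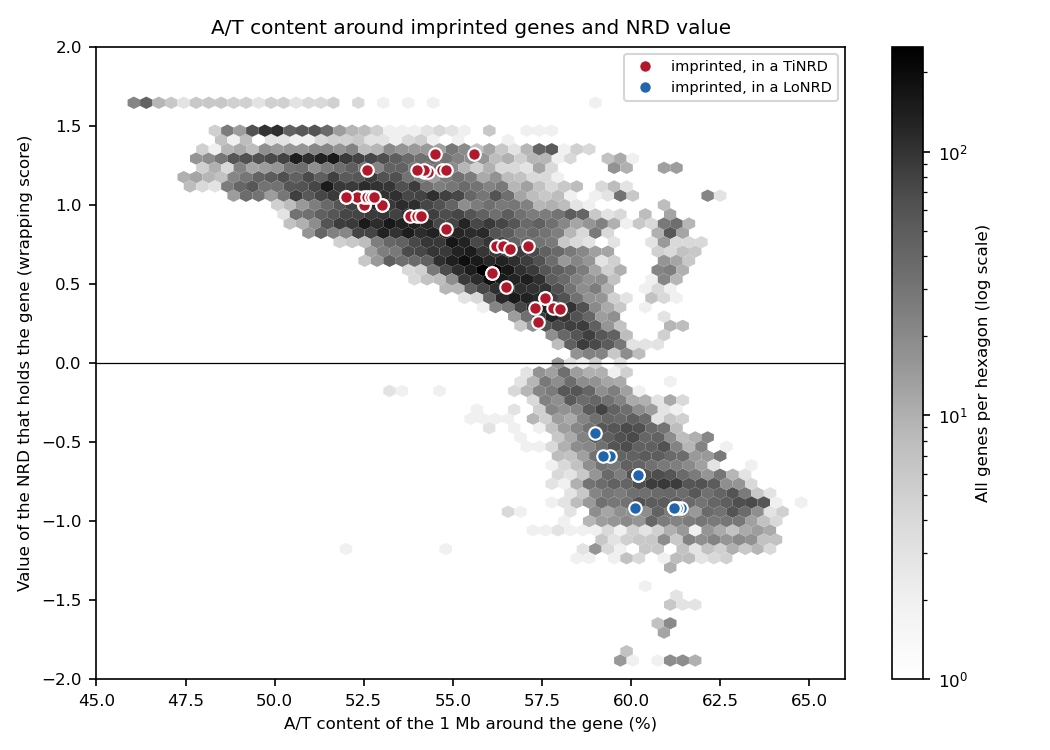
A/T content of the 1 Mb around each gene (percent) and the value of its NRD (wrapping index, labelled wrapping score). All genes are shown as shaded hexagons and the members as points. Genes outside the axis limits are not drawn, the members in TiNRDs span 52.0% to 58.0% A/T and those in LoNRDs 59.0% to 61.4%, and the members lie within the cloud of all genes.

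A further list of genes described as imprinted in mouse or lying beside an imprinted gene gave 31 of 32 with a position. Of these 24 were in TiNRDs and 7 in LoNRDs, near the 76.0% and 22.8% of all genes. Many of these genes share a domain with a member, as Cd81, Ins2 and Th do with H19. The list is therefore not independent of the members. Of all genes 70.0% replicated early, and of this list 27 replicated early, 3 late and 1, Zim3 beside Usp29, had no RT domain. The calls corresponded for 22 tight and early genes and for 2 loose and late ones, Atp10a near Ube3a and Tfpi2 near Sgce. They differed for Pde10a (NRD 1.13, RT -0.54), tight and late as were 9.91% of all genes. They also differed for 5 genes that were loose and early, beside 5.61% of all genes. Calcr (NRD -0.59, RT 0.09), Casd1 (NRD -0.59, RT 0.79) and Asb4 (NRD -0.08, RT 0.79) lie in the region of Sgce and Peg10, Cobl (NRD -0.76, RT 0.56) is a neighbour of Grb10 and Adam23 (NRD -0.04, RT 1.00) of Zdbf2.

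Genes whose products set, keep or erase imprints were mostly tight and early themselves. Of 19 such genes 18 were in TiNRDs, beside 76.0% of all genes, and 17 in early domains, beside 70.0%. Zfp57 had an NRD value of 0.33 and an RT value of 1.03, Trim28 0.45 and 1.16, the maintenance methyltransferase gene Dnmt1 0.93 and 1.74, and Dnmt3l, a cofactor of methylation in the germ line, 1.19 and 1.25. The exceptions were Zfp42 (Rex1), a marker of pluripotent cells, in a LoNRD with a value of -0.76 that replicated early with a value of 0.80, and Nlrp2 and Nlrp5, genes of the oocyte, in TiNRDs with values of 0.82 and 0.49 that replicated late with values of -0.80 and -0.44.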

How the data were processed

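Per the submitters' processing notes and methods, adaptors were removed with cutadapt 4.3, Bowtie2 2.5.1 aligned the reads to mm10, Picard marked duplicates, and reads of low mapping quality were dropped. The NRD value deposited by the authors is a score: a z-score, over 100 kb bins, of the deviation between longer and shorter H3 fragments, smoothed before domains of one sign were called with HOMER. The RT value deposited by the authors is a log2 ratio of fractions S1 and S2 over S3 and S4 in 50 kb windows, after quantile normalization. Whether replicates were pooled, and how bins gave the value of a domain, is not given in the sources used here. The depth per sample cannot be read from the lists.

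Here each gene was assigned by its midpoint with Python 3.11.15 and numpy 2.4.6. Tested on simulated data, 10000 positions gave 0 wrong assignments. Every domain on the 21 chromosomes lay inside the GRCm38 lengths. All listed genes with a position were named, and from the further lists those whose calls did not correspond, with examples of regulators chosen after their values were seen. Members and lists were chosen with earlier results of these data known. The expressed allele and the germline mark are textbook knowledge. The alternatives were gene starts, largest part of the body, longer domains, distance from borders, chromosome 7 left out, protein-coding members, other limits for a locus and other backgrounds. Counting each domain 1 time was chosen after seeing the data.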

Additional observations from a re-analysis of the deposited data

How the results depend on the processing

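Of 61 alternatives over 18 results, 51 stayed near the value reported, by limits of 1.5 times for counts, 1 SD over members or loci for medians, and the exact binomial interval, narrow with so many genes, for shares of all genes. With each domain counted 1 time, a choice made after seeing the data, the median TiNRD length fell from 9400 to 4000 kb and that of early domains from 3300 to 1525 kb, within that wide SD. Chromosome 7 held 6 of the 10 loose members. Without it, 27 members were in TiNRDs and 4 in LoNRDs, beside 76.0% and 22.8% of all genes. Early domains then held 28 members and late domains 3, beside 70.0% and 25.7% of all genes. These shares of all genes include chromosome 7. All 8 shares of all genes left that interval: they were 76.9% in TiNRDs, 21.9% in LoNRDs, 73.7% early and 22.5% late with protein-coding genes alone, and 77.9%, 21.0%, 72.3% and 24.2% on autosomes. Assigned by gene start, 35 members were early. By the largest part of its span the locus of Ube3a and Snrpn became a TiNRD, giving 18 tight loci. No paired analysis was possible because the lists are single calls without replicate columns. Alleles, replicate error and depth cannot be read from these lists, and a border is no finer than its bin.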
